A study of Macaca mulatta with 56 samples.

Results

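The neuropeptide precursors described here are 10 genes chosen by symbol: CCK, TAC1, TAC3, VIP, SST, CORT, NPY, PENK, PDYN and CRH. They were chosen with earlier results of these data known. Of the 17807 rows in the table, 9 carry the name of one of them, and CORT (cortistatin), which was paired with no row, was not analysed here. Messenger RNA from the amygdala, prefrontal cortex, hippocampus and occipital cortex was sequenced in 14 female rhesus macaques aged 19.4 to 23.2 years, with 1 library per region and animal, so n = 7 per group unless stated. In the HT group, estradiol capsules placed right after surgery gave a mean serum estradiol of 82.1 pg/mL. In the OvH group the capsules were empty and the mean was 6.6 pg/mL. Both groups had been ovariectomized and hysterectomized, and both had eaten a Western-style diet, with 36% of its calories from fat and 18.5% from sugars, since about 6 weeks before that surgery. No animal with intact ovaries and none on ordinary chow entered these comparisons, and the text of the study gives the exposure as 30 months in one place and 32 months in another. The comparison of HT with OvH asks how transcript levels in the aged brain differ with and without estradiol replacement after surgical menopause.

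Neuropeptides are cut from larger precursor proteins inside dense-core granules and are released alongside fast transmitters, mostly to act on G protein-coupled receptors. In the cortex, hippocampus and amygdala the precursors named here mark classes of neurons: SST, NPY and VIP belong mainly to GABAergic interneurons, while CCK is made by both interneurons and excitatory neurons. In the amygdala, peptides of this kind take part in fear, anxiety and responses to stress, and several of their genes are known in rodents to respond to estradiol.

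On many rows of the table the amygdala columns hold a different transcript from the remaining columns, so a name read in the amygdala cannot be carried over without a check. A row was used outside the amygdala only where its mean log2(value + 1) over the other 3 regions lay within 2 of its mean in the amygdala (a factor of 4). This held for 13520 of the 17807 rows and for 7 of the 9 precursors. The difference, the other regions minus the amygdala, was 0.19 for CCK, -0.55 for TAC1, -0.23 for VIP, -0.73 for SST, 0.05 for PDYN and 1.18 for CRH. NPY lay just inside the limit at -1.95. PENK at -11.92 and TAC3 at -7.83 lay far outside it: the row named PENK was listed at 0 in all 42 libraries of the other regions and the row named TAC3 in 39 of them, with 1 read at most. PENK and TAC3 are therefore described in the amygdala alone. A row beside TAC1 and a row beside PDYN in the table also failed the check, whereas both neighbours of CCK, VIP, SST, NPY and CRH passed it. A pass does not prove a shared name: 75.8% of rows passed in place, and 43.0% or 42.7% still did so when the rows of one side were moved by 1 position.

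Values are upper-quartile normalized read counts per gene, not corrected for transcript length, so levels are compared between samples and regions and not between genes. Libraries held 34629533 to 93335855 reads. The amygdala libraries expressed markers of both main neuron classes in every animal: SLC17A7, the vesicular glutamate transporter of cortical-type excitatory neurons, ranged from 35946 to 70579 in HT and from 43574 to 92078 in OvH, and GAD1, which makes GABA, from 9034 to 18309 in HT and from 9356 to 18116 in OvH. PPP1R1B, a marker of striatal projection neurons, was also present, at 10578 to 22241 in HT and 10074 to 16859 in OvH. Its level did not set the amygdala apart: means were 13789 in HT and 12202 in OvH there, against 15290 and 16796 in occipital cortex. DRD1, another striatal marker, had means of 1242 in HT and 1632 in OvH amygdala, against 4061 and 5078 in occipital cortex. The hypothalamic peptide genes HCRT, PMCH, AVP and OXT were not analysed here. In hippocampus the libraries of HT animal 40 and OvH animal 33 held 1462333 and 1325282 normalized counts of TTR, the transthyretin gene of the choroid plexus, where the group medians were 3817 in HT and 3604 in OvH. The hippocampus libraries of OvH animals 30 and 43 stood apart in the glutamatergic marker list, with mean log2 levels of 12.42 and 12 against at most 11.57 in the other 12. Their summed levels of that list, 130500 and 131900, were instead the lowest in hippocampus, next to 132000 in HT animal 40. The hippocampal values of the precursors were also computed without each of these pairs of animals. In amygdala the summed level of 7 choroid plexus marker genes was 29160 in HT animal 42 and 29080 in OvH animal 35. In the other 12 amygdala libraries it was at most 3639. TTR reached 24979 in OvH amygdala, where its median was 931.8. The amygdala fits left out these animals singly and not together, and the part of choroid plexus in the amygdala values was not tested. Each library came from a pulverized piece of a region, so its nuclei or layers were not separated. In such tissue, fewer cells of a type and less RNA per cell cannot be told apart.

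In the amygdala, 3 of the 9 precursors rose in HT relative to OvH and none fell. CCK, TAC1 and VIP were higher in HT by 1.93-fold, 1.84-fold and 1.74-fold, while SST, NPY, PENK, PDYN, CRH and TAC3 did not pass the test. The test was limma on log2(value + 1) with Benjamini-Hochberg adjustment over the 16129 rows tested, at an adjusted p under 0.05. Over all rows tested, 6.89% were called, 6.16% as higher and 0.732% as lower, and the median log2 difference was 0.01. The number of rows called, 1112, ran from 548 without OvH animal 33 to 2362 without OvH animal 32. Among the precursors 4 differences were positive and 5 negative, with a median of -0.14. Because the precursors were chosen with earlier results of these data known, 3 of 9 is not an independent comparison with the shares over all rows.

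**Figure D1:**
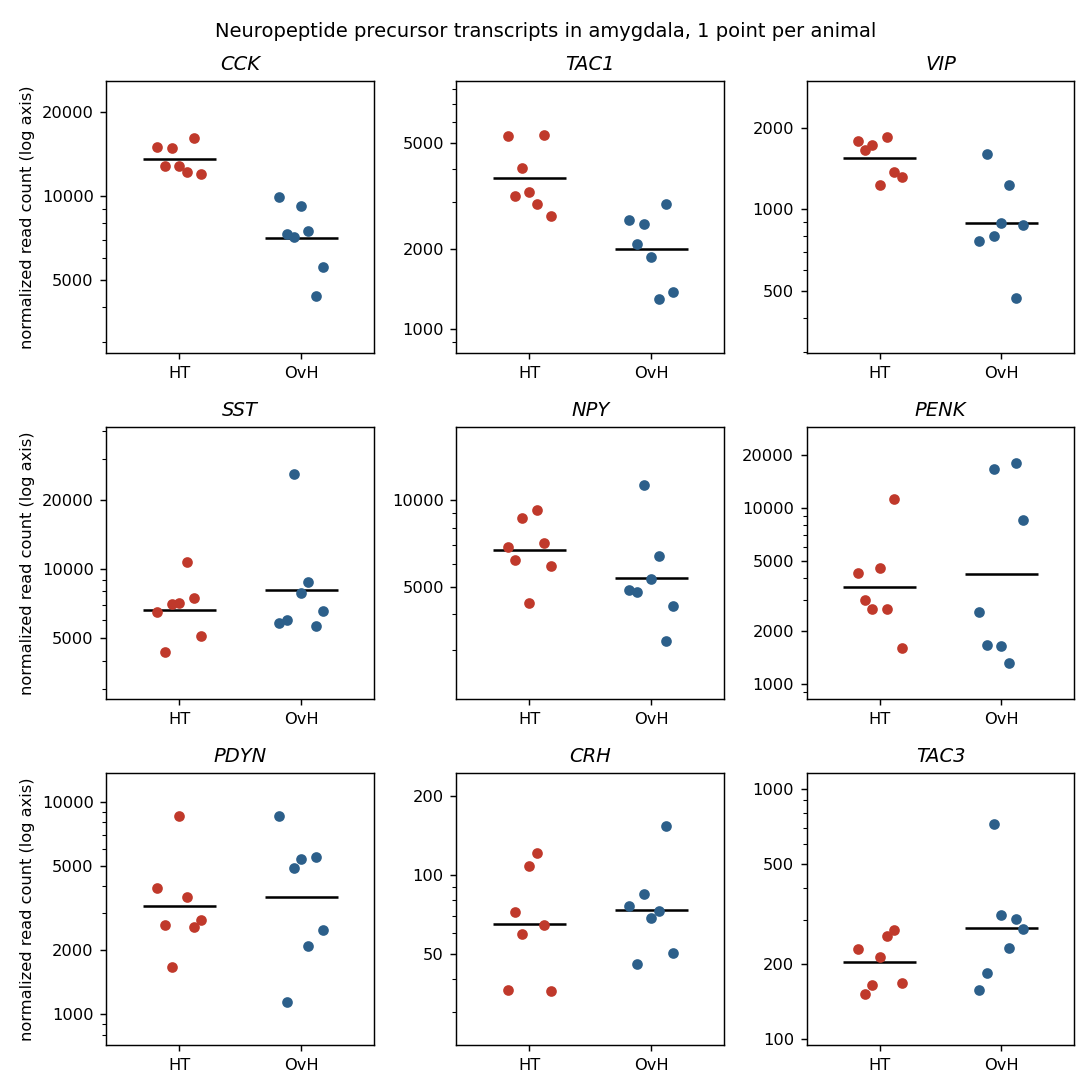
Normalized read counts of the 9 precursors in amygdala on log axes, 1 point per animal, HT left and OvH right, with horizontal lines at the geometric means. All 7 HT animals lie above all 7 OvH animals for CCK, 6 of 7 do so for TAC1 and 4 of 7 for VIP, and the groups overlap in the remaining panels.

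CCK encodes cholecystokinin, a peptide that acts in the brain mainly at the CCKBR receptor. Its normalized counts had a lowest value of 12056, a median of 12894 and a highest value of 16200.4 in HT, against 4380.0, 7336 and 9966 in OvH. The lowest HT animal thus stood above the highest OvH animal, a complete separation in this direction that 0.744% of the rows tested showed. Means were 13729.5 ± 1616 in HT and 7306 ± 1926 in OvH (SD), and the log2 difference was 0.95 (SE 0.16, 95% confidence interval 0.61 to 1.29, limma adjusted p = 0.00674). The call held when each animal was left out in turn.

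The tachykinin genes gave differences of opposite sign, of which the positive one, TAC1, passed the test. TAC1, the precursor of substance P and neurokinin A, had values of 2670.1, 3287 and 5347 (lowest, median, highest) in HT, against 1300.5, 2089 and 2959 in OvH. The HT animals lay above the OvH range except for animal 42, which stood below the highest OvH value, that of animal 35. The log2 difference was 0.88 (SE 0.21, interval 0.43 to 1.32, limma adjusted p = 0.0192), and the call was lost by a narrow margin without HT animal 36 (0.79, adjusted p = 0.0502). TAC3, the precursor of neurokinin B, had counts of 152 to 274 in HT with a median of 213.5, against 157 to 725 in OvH with a median of 274.5. No HT animal exceeded the OvH median, yet the ranges overlapped and the log2 difference of -0.44 (interval -1.05 to 0.16) did not pass the test (limma adjusted p = 0.408).

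VIP, the vasoactive intestinal peptide gene of interneurons that mainly inhibit other interneurons, had values of 1230.5, 1653 and 1855 in HT, against 473, 876 and 1596 in OvH. All 7 HT animals lay above the OvH median and 4 of them above every OvH animal. The log2 difference was 0.80 (SE 0.21, interval 0.34 to 1.25, limma adjusted p = 0.0333). This call depended on single animals: the adjusted p was between 0.0571 and 0.0773 when any one of HT animals 36, 37, 38 and 40 or OvH animals 30, 33, 35 and 43 was left out. It was also lost with edgeR on the recovered reads (0.61, adjusted p = 0.0928) and with the animal as a block over all regions (0.80, adjusted p = 0.0594).

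SST and NPY are peptides of interneurons that target dendrites, and many such cells make both. SST had values of 4350, 7035 and 10707 in HT, against 5633, 6595 and 25976 in OvH. The groups overlapped, and the highest value came from OvH animal 32, which stood apart from the rest of its group. NPY had values of 4383, 6842.5 and 9234 in HT, against 3241, 4861.5 and 11266 in OvH, again with animal 32 as the highest. Neither passed the test: the log2 difference was -0.29 for SST (interval -0.90 to 0.33) and 0.33 for NPY (interval -0.14 to 0.81), with limma adjusted p of 0.620 and 0.430. The same OvH animal also gave the highest TAC3 value. Its summed level of 21 GABAergic marker genes was the highest of the 14 libraries at 86430, but its mean log2 level of them was the lowest of OvH at 9.67. Without animal 32 the log2 differences were -0.01 for SST, 0.51 for NPY and -0.21 for TAC3, and none passed.

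The opioid precursors spread widely between animals of both groups, and neither passed the test. PENK, which encodes the enkephalins, had values of 1608, 2978 and 11153 in HT, against 1311, 2561 and 17991 in OvH. In OvH, animals 32, 35 and 43 had 16515, 17991 and 8557 while the other 4 had 1311 to 2561, and in HT animal 41 stood alone above the next value of 4573. PENK is known as a marker of striatal projection neurons as well as of central amygdala neurons. The mean log2 level of 11 striatal marker genes was highest in animal 41 within HT (9.29) and in animal 35 within OvH (9.78). It was 9.09 in animal 43 but lowest of all in animal 32 (8.18). The summed level of these genes was highest in animal 35 within OvH (25540) and in animal 42 within HT (27380). Animal 42 had the lowest HT value of PENK. The part of striatal cells in the PENK values was not tested. PDYN, which encodes the dynorphins, had values of 1672, 2772 and 8579.9 in HT, against 1143, 4868 and 8571 in OvH, so the ranges overlapped almost fully. The lowest OvH value of PDYN belonged to animal 31 and the highest HT value to animal 39. Intervals were wide for both, with log2 differences of -0.24 for PENK (interval -1.51 to 1.03) and -0.14 for PDYN (interval -0.99 to 0.72) and limma adjusted p of 0.869 and 0.889.

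CRH, the corticotropin-releasing hormone gene, was measured from few reads in the amygdala, 22 to 96 per HT library and 38 to 256 per OvH library. Its normalized counts were 36.0, 64.6 and 120.8 in HT, against 45.6, 72.9 and 153.3 in OvH. The groups overlapped, and the log2 difference of -0.18 (interval -0.88 to 0.53) did not pass the test (limma adjusted p = 0.815).

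Transcripts of cytosolic ribosomal proteins were also higher in the HT libraries of the amygdala. Of 66 such genes 64 were tested in the amygdala, and 54 rose in HT and none fell, with a median log2 difference of 1.22; reads of these genes are easily shared with processed pseudogenes, so single members are uncertain. Their mean log2 level ran from 14.63 to 16.21 in HT and from 14.07 to 15.12 in OvH, and 6 of 7 HT animals lay above every OvH animal. The exception was animal 39, which had the lowest HT level of this list, and it also had the lowest HT values of VIP (1230.5) and NPY (4383), while its CCK (12894) and TAC1 (3287) were the group medians. With the ribosomal protein mean as a covariate the log2 differences were 0.65 for CCK, 0.48 for TAC1 and 0.40 for VIP, and limma called no row in the table, with 376 at an unadjusted p under 0.05. The covariate itself differed between the groups, with means of 15.67 in HT and 14.55 in OvH. This fit therefore cannot tell its part from that of treatment. The part of the ribosomal protein transcripts, or of whatever moves them, in the precursor differences was not tested further.

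**Figure D2:**
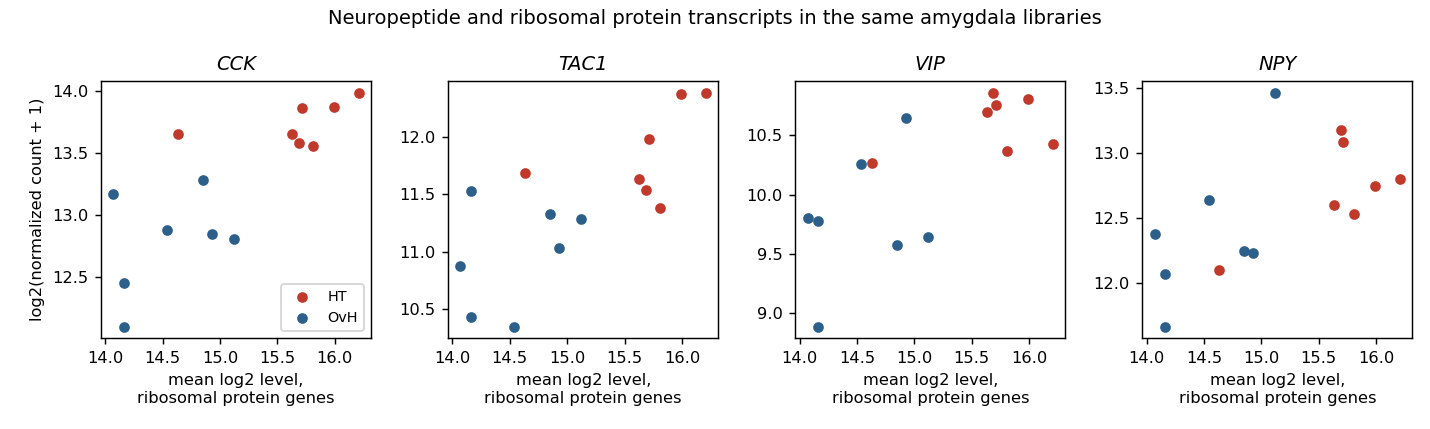
Log2(normalized count + 1) of CCK, TAC1, VIP and NPY against the mean log2 level of the cytosolic ribosomal protein genes in the 14 amygdala libraries, HT in red and OvH in blue. HT animals stand to the right except animal 39 at 14.63, and that animal has the lowest HT value of VIP (1230.5) and NPY (4383) and the median HT value of CCK (12894) and TAC1 (3287).

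The scale of the libraries bears on the sizes of these differences. The normalized totals of the amygdala libraries were larger in HT than in OvH, at 71117066 ± 4463271 and 61362759 ± 4080272 (SD). After scaling to equal totals the median of all rows stood at -0.20, and CCK at 0.74, TAC1 at 0.66 and VIP at 0.58. CCK (limma adjusted p = 0.0137) and TAC1 (0.0490) stayed past the threshold and VIP (0.0720) did not. The called rows then split into 618 higher and 1016 lower, against 994 higher and 118 lower with the deposited scaling.

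No neuropeptide receptor gene tested in the amygdala was called as higher in HT. Of all 16129 rows tested in the amygdala, 3474 had an unadjusted limma p under 0.05. Of 19 receptor genes tested in the amygdala limma called none, 3 had an unadjusted p under 0.05, and 15 differences were negative with a median of -0.22. The smallest p belonged to OPRK1, the kappa opioid receptor for dynorphins, with 565.6 ± 181 in HT and 886.1 ± 195 in OvH (log2 -0.68, SE 0.21, limma adjusted p = 0.0588). NPY1R, a receptor of neuropeptide Y, had 391.5 ± 138 in HT and 562 ± 122 in OvH (-0.56, adjusted p = 0.142). OPRL1, the nociceptin receptor, differed by -0.50 (adjusted p = 0.202). The calls depended on the scaling: with equal totals all 19 differences were negative and OPRK1, NPY1R and OPRL1 were called, and with edgeR on the recovered reads OPRK1 alone was called (-0.76, adjusted p = 0.0482), as it was with DESeq2 (-0.68, adjusted p = 0.0238).

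Of 16 genes for peptide processing and granules, PCSK2, a convertase that cuts many of these precursors, was called as lower in HT, the 1 call in that list. Over all amygdala rows tested, 0.732% were called as lower. PCSK2 had 5764 ± 1097 in HT and 7996 ± 1008 in OvH (log2 -0.48, SE 0.13, limma adjusted p = 0.0337). The list as a whole had 6 positive and 10 negative differences with a median of -0.31. With equal totals 4 of its genes were called as lower, and with edgeR and with DESeq2 3 each. The PCSK2 call was lost without any one of HT animals 36, 37, 38 and 42 or OvH animals 33, 34, 35 and 43 (adjusted p between 0.0663 and 0.0893) and with the animal as a block (0.0787). Among 19 other neuropeptide precursors tested, GRP, the gastrin-releasing peptide gene, rose in HT, with 1181 ± 660 against 433.0 ± 86.1 in OvH (log2 1.3, SE 0.28, limma adjusted p = 0.0113). GRP was the 1 call among the 19 of this list, where 6.16% of all amygdala rows tested were called as higher. In that list 15 differences were positive and 4 negative, with a median of 0.50 (11 and 8 with equal totals).

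With limma no neuronal marker rose past the threshold. Of 21 GABAergic markers limma and edgeR called none, DESeq2 called PVALB as higher and CALB2 as lower, and 3 had an unadjusted limma p under 0.05. An unadjusted p this small was reached by 3474 of all 16129 rows tested. PVALB, the parvalbumin gene of fast-spiking interneurons, differed by 1.09 (2983 ± 1245 in HT and 1478 ± 802 in OvH, limma adjusted p = 0.0636, and 0.00320 with the animal as a block over all regions). CALB2, the calretinin gene, differed by -0.79 (adjusted p = 0.117, and 0.0355 with the block). The median of the list was -0.19, and its summed level ran from 55240 to 75380 in HT and from 55790 to 86430 in OvH. Of 17 pan-neuronal markers, SYP (-0.71, limma adjusted p = 0.0397) and DNM1 (-0.66, adjusted p = 0.0439), genes of synaptic vesicles and of their recycling, fell, and 14 of the 17 differences were negative. Over all amygdala rows tested, 0.732% were called as lower. The SYP and DNM1 calls were both lost without any one of HT animals 36, 37, 38, 40 and 42 or OvH animals 33, 34, 35 and 43. No marker was called by limma among 13 glutamatergic (12 negative, median -0.17), 11 striatal, 10 endothelial, 7 choroid plexus and 6 meningeal genes, of which 1, 0, 2, 0 and 0 had an unadjusted p under 0.05. On the recovered reads edgeR and DESeq2 each called 1 endothelial gene as lower and none in the other 4 lists. With equal totals limma called 4 pan-neuronal, 1 GABAergic, 1 glutamatergic and 1 endothelial gene as lower and none of these lists' genes as higher. Negative differences then numbered 17 of 17, 19 of 21, 13 of 13 and 10 of 10 in the same order. The median of all rows was -0.2 with that scaling.

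Among glial markers limma called 2 of 13 myelin, 1 of 11 astrocyte and 1 of 10 microglial genes as higher in HT. Of all amygdala rows tested, 6.16% were called as higher. GJB1 and MBP, genes of myelinating oligodendrocytes, both differed by 1.14 (limma adjusted p = 0.0193 and 0.0297). The GJB1 call was lost without animal 33, and the MBP call with edgeR and without any one of animals 33, 34, 35, 36, 37, 41 and 43. The summed level of the 13 myelin and oligodendrocyte genes ran from 788100 to 1594000 in HT and from 377100 to 1280000 in OvH, and 12 of the 13 differences were positive. The median difference was 0.41 in that list. S100B, an astrocyte gene, differed by 1.05 (adjusted p = 0.0146) and AIF1, a microglial gene, by 1.06 (adjusted p = 0.00690), each the single call in its list. Among the astrocyte markers 5 differences were positive and 6 negative (median -0.07), and among the microglial markers 6 were positive and 4 negative (median 0.12). AIF1 lost its call with the animal as a block (adjusted p = 0.120). With the myelin mean as a covariate CCK (0.94, adjusted p = 0.0217) and TAC1 (1.01, 0.0325) kept their calls and VIP (0.65, 0.157) did not. With the GABAergic mean as a covariate the values were 0.93, 1 and 0.66 with adjusted p of 0.0506, 0.0530 and 0.191, and limma called no row in the table (2406 at an unadjusted p under 0.05).

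Outside the amygdala no precursor passed the test between HT and OvH, and neither did any other row: limma called 0% of 16317 rows in hippocampus, of 16138 in occipital and of 16286 in prefrontal cortex. An unadjusted p under 0.05 was reached by 335, 303 and 603 rows. On the recovered reads edgeR called none and DESeq2 called 12, 0 and 6. The genes that rose in the amygdala had differences of either sign elsewhere. CCK had values of 5928, 11250 and 16472 in HT hippocampus, against 4685, 15219 and 26560 in OvH hippocampus, and of 7524, 11715 and 16491 in HT prefrontal cortex, against 8705, 13432.5 and 21305.5 in OvH prefrontal cortex. Only 1 of 7 HT animals in hippocampus and 2 in prefrontal cortex stood above the OvH median. TAC1 had values of 792.8, 1427 and 1923 in HT hippocampus, against 1236, 1781 and 3103 in OvH hippocampus, with 2 HT animals below every OvH animal. VIP had values of 850.4, 1035 and 3392 in HT occipital cortex, against 631.1, 989.2 and 1834 in OvH occipital cortex, and the highest of each group stood apart from the rest.

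For CCK the log2 differences were -0.24 in hippocampus (interval -0.99 to 0.51), -0.22 in prefrontal cortex (-0.66 to 0.21) and -0.09 in occipital cortex (-0.73 to 0.55). For TAC1 they were -0.49 (-1 to 0.02), 0.03 (-0.26 to 0.31) and 0.19 (-0.44 to 0.81) in the same order. For VIP they were -0.28 (-1 to 0.44), 0.13 (-0.18 to 0.45) and 0.29 (-0.31 to 0.88). The upper bound lay below the amygdala estimate of the same gene in every case but VIP in occipital cortex (0.88 against 0.80). That sets a bound beside an estimate and leaves out the interval of the amygdala value, so it is no test between regions. A test of the difference within animals is given below.

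**Figure D3:**
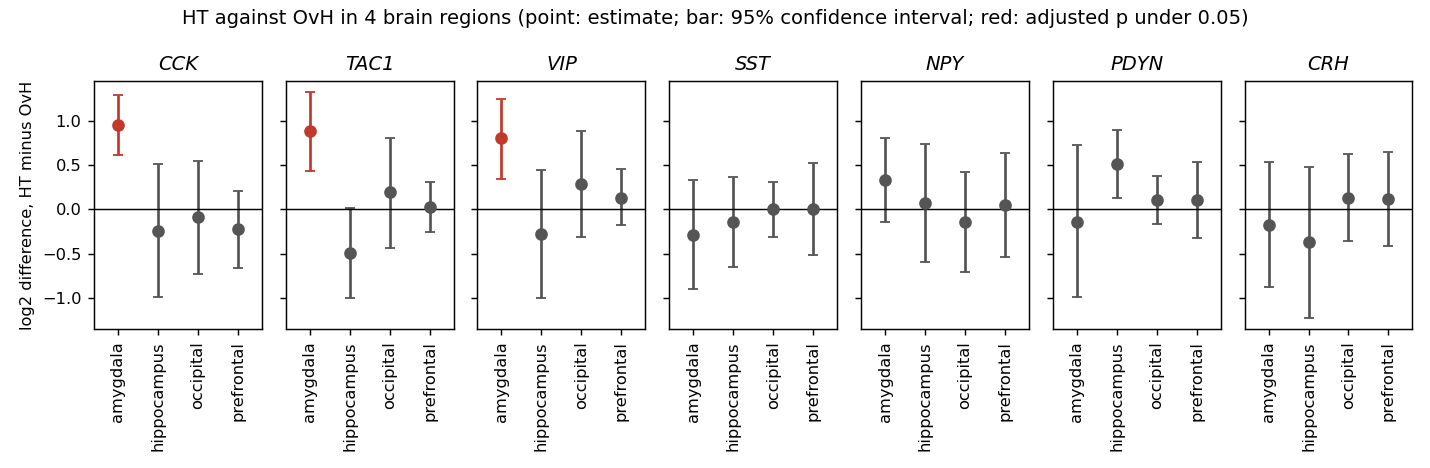
Log2 differences, HT minus OvH, with 95% confidence intervals in 4 regions for the 7 precursors that could be followed in all of them. Red points are past the adjusted threshold, which CCK, TAC1 and VIP reach in the amygdala alone, at 0.95, 0.88 and 0.80, and the highest point outside the amygdala is PDYN in hippocampus at 0.51.

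The dynorphin precursor gave the smallest p outside the amygdala. In hippocampus PDYN had values of 2682, 3732 and 5603 in HT, against 2076, 3006 and 3305 in OvH. The ranges overlapped, and 6 of 7 HT animals stood above the OvH median, 4 of them also above the highest OvH value. The log2 difference was 0.51 (SE 0.18, interval 0.13 to 0.90), with an unadjusted limma p of 0.0118 and an adjusted p of 0.9999, so it did not pass. The highest HT value and the lowest OvH value came from animals 40 and 33, whose libraries held the high TTR counts, and the difference was 0.36 without them. It was 0.52 without animals 30 and 43. Over the means of the 3 regions PDYN differed by 0.24 (interval 0.01 to 0.47, limma adjusted p = 1). In the dentate gyrus of rodents dynorphin is made by granule cells.

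SST, NPY and CRH had intervals that spanned 0 in hippocampus and both cortices. In occipital cortex SST had values of 2657, 2875 and 3991 in HT, against 2529, 2989 and 4078 in OvH, a log2 difference of 0.00 with an interval of -0.31 to 0.31. In prefrontal cortex it was again 0.00, with a wider interval of -0.52 to 0.52. NPY gave 0.07 in hippocampus (-0.59 to 0.74), 0.05 in prefrontal cortex (-0.54 to 0.63) and -0.14 in occipital cortex (-0.71 to 0.42). CRH gave -0.37 in hippocampus (-1.22 to 0.48), 0.12 in prefrontal cortex (-0.41 to 0.65) and 0.13 in occipital cortex (-0.36 to 0.62). Without animals 30 and 43 the hippocampal differences of VIP, NPY and CRH changed sign, to 0.21, -0.27 and 0.04, and those of CCK, TAC1 and SST were -0.13, -0.42 and -0.36. Without animals 33 and 40 the differences were -0.13 for CCK, -0.36 for TAC1, -0.34 for VIP, 0.01 for SST, 0.28 for NPY and -0.62 for CRH. None of these passed the limma test.

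Whether the difference in the amygdala exceeded that in the other regions was tested within animals, on the amygdala value minus the mean of the other 3. The difference of differences was 1.13 for CCK (interval 0.60 to 1.67), 0.97 for TAC1 (0.39 to 1.55) and 0.75 for VIP (0.18 to 1.32). After adjustment over 13520 rows none passed: limma adjusted p was 0.0609, 0.0659 and 0.119, where 0% of rows were called and 3084 had an unadjusted p under 0.05. Single animals decided this outcome for the table as a whole. CCK passed without any one of animals 30, 31, 32, 39 and 40 (adjusted p between 0.0113 and 0.0418) and with libraries scaled to equal totals (0.91, adjusted p = 0.0488). TAC1 passed without the same animals (0.0308 to 0.04998) and VIP without animal 31 (0.99, adjusted p = 0.0311). In those leave-outs the number of rows called over the whole table also rose from 0, to between 728 (without animal 31) and 1159 (without animal 39) of 13520. With equal totals it was 505. These passes are therefore not particular to the precursors. The comparison rests on rows whose levels match, and the ribosomal protein list had a median of 1.28 in it, all 52 of its members positive.

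Levels of the precursors also differed between hippocampus, occipital cortex and prefrontal cortex, over both treatments together. With the animal as a block, limma called 43.4% of 16354 rows between hippocampus and prefrontal cortex, 50.7% between hippocampus and occipital cortex and 47.9% between occipital and prefrontal cortex. Of the 7 precursors, 2, 6 and 3 were called, shares to be read against those backgrounds. CRH had 105.5 ± 66.1 in hippocampus, 219.1 ± 66.3 in prefrontal cortex and 214.9 ± 63.6 in occipital cortex (SD, n = 14), and it was lower in hippocampus than in either cortex in all 14 animals. The log2 differences were -1.19 against prefrontal (SE 0.15, limma adjusted p = 2.962e-07) and -1.17 against occipital cortex (SE 0.15, adjusted p = 1.413e-07), and the cortices did not differ past the threshold (-0.02, interval -0.33 to 0.30).

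VIP was also low in hippocampus, with a median of 627.8, against 1354 in prefrontal and 1019 in occipital cortex. It was below prefrontal cortex in 13 of 14 animals, the exception being OvH animal 43, one of the libraries that stood apart. The log2 differences were -0.96 from prefrontal (limma adjusted p = 2.373e-05) and -0.73 from occipital cortex (adjusted p = 0.000409). SST was lowest in occipital cortex: medians were 2932 in occipital cortex, 5056 in prefrontal cortex and 5667 in hippocampus. Hippocampus was higher than occipital cortex by 0.89 (adjusted p = 7.396e-06) and the difference of occipital minus prefrontal at -0.61 (adjusted p = 0.000978). NPY was higher in hippocampus than in occipital cortex by 0.51 (adjusted p = 0.0123), with means of 1970.0 ± 703 and 1367 ± 528, and its other contrasts of 0.21 and -0.31 did not pass.

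**Figure D4:**
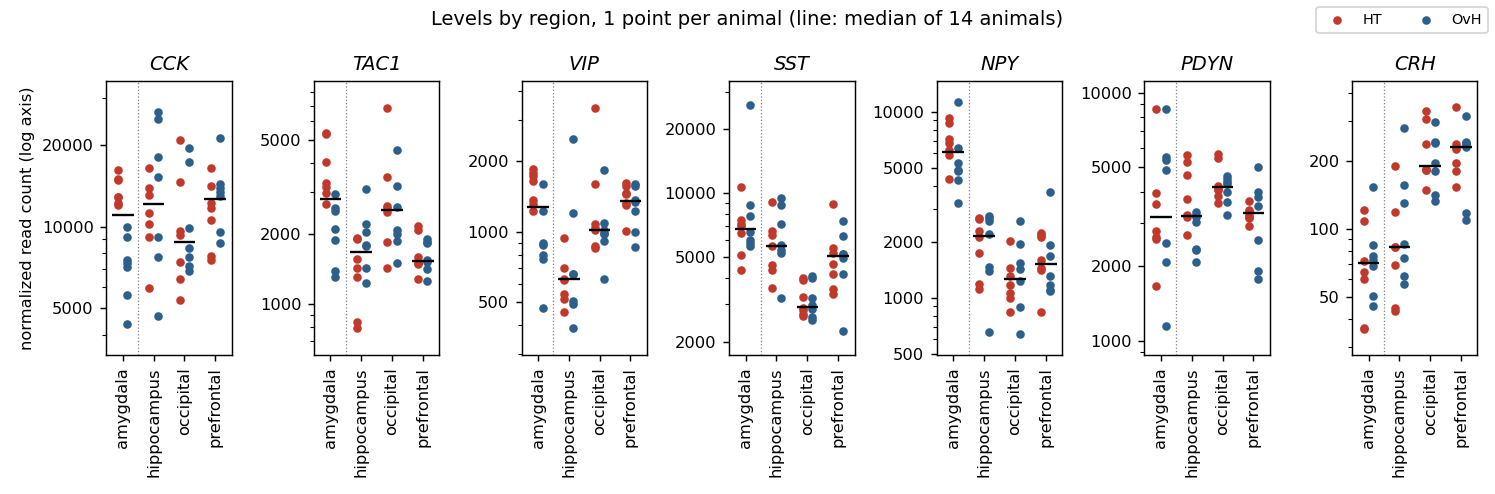
Normalized read counts on log axes of the 7 precursors by region, 1 point per animal with HT left and OvH right in each region, and a line at the median of 14 animals. A dotted line sets off the amygdala, whose level was part of the rule that chose the rows. CRH is lowest in amygdala and hippocampus, VIP in hippocampus and SST in occipital cortex, and NPY is highest in amygdala, with a median of 6055.

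TAC1 and PDYN shared an occipital maximum among these regions. TAC1 had medians of 2524 in occipital cortex, 1669 in hippocampus and 1529 in prefrontal cortex, and occipital cortex exceeded prefrontal cortex in 13 of 14 animals (log2 0.65, limma adjusted p = 0.00356). The difference of hippocampus minus occipital cortex was -0.69 (adjusted p = 0.00185). PDYN had medians of 4166, 3193 and 3292 in the same order, again with occipital above prefrontal cortex in 13 of 14 animals (0.42, adjusted p = 0.00492) and a difference of hippocampus minus occipital cortex of -0.36 (adjusted p = 0.0136). CCK differed between no pair of these regions past the threshold, at -0.01, 0.28 and -0.29, although its values spread widely, from 4685 to 26560 in hippocampus. Every contrast with hippocampus that passed also passed without either pair of animals: without animals 30 and 43 and without animals 33 and 40, hippocampus minus occipital cortex was -0.79 and -0.50 for TAC1, 0.97 and 0.89 for SST, 0.61 and 0.66 for NPY, -0.32 and -0.33 for PDYN and -1.31 and -1.24 for CRH. For VIP it was -0.98 and -0.60, and hippocampus minus prefrontal cortex was -1.15 and -0.93 for VIP and -1.32 and -1.20 for CRH. Between CCK medians of 12181 in hippocampus and 12629 in prefrontal cortex the order is not resolved.

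The amygdala is set beside these levels as a description only, since a similar level was the condition for reading a row elsewhere. NPY had a mean of 6320.5 ± 2190.3 in amygdala, 1970.0 ± 703 in hippocampus, 1701 ± 725 in prefrontal cortex and 1367 ± 528 in occipital cortex, and the amygdala was the highest region in all 14 animals. SST was highest in amygdala in 10 of 14 animals. CRH was lowest there in 10 of 14, with a mean of 74.97 ± 33.1. CCK, TAC1, VIP and PDYN were highest there in 4, 8, 5 and 5 animals and lowest in 8, 3, 2 and 6.

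The precursors also varied together between animals of the same group. Deviations of log2(value + 1) from the group mean were correlated over the 14 libraries of a region, for 36 pairs in the amygdala and 21 in each other region, with permutation p values adjusted by Benjamini-Hochberg over the pairs of a region. In hippocampus SST and NPY varied together (Pearson r 0.84, permutation p = 0.00011, adjusted 0.00231; Spearman rho 0.79, p = 0.0013, adjusted 0.0273), and r was 0.75 without the 2 animals farthest from the SST median, 0.72 without animals 30 and 43 and 0.82 without animals 33 and 40. By rho, 31 of 16317 rows were more like SST than NPY was. SST itself is included in this count and in those for the amygdala below. In the amygdala the same pair had r 0.82 (p = 0.00072, adjusted 0.013) and rho 0.70 (p = 0.00673, adjusted 0.131), but r was 0.46 without the 2 farthest animals, so the relation rests in part on them, and by rho 779 of 16129 rows were more like SST than NPY was. SST and TAC3 had r 0.85 (p = 0.00065, adjusted 0.013), rho 0.70 (p = 0.00728, adjusted 0.131), and r 0.54 without the 2 farthest animals, and 802 rows were more like SST than TAC3 was. Only r passed the adjustment for these amygdala pairs.

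In prefrontal cortex the closest pair was CCK and SST, with r 0.90 and rho 0.91 (each permutation p = 2e-05, adjusted 0.00042) and r still 0.90 without the 2 farthest animals. VIP and CRH had r 0.81 (p = 0.00073, adjusted 0.00766), rho 0.69 (p = 0.00733, adjusted 0.0308) and r 0.70 without the 2 farthest animals. TAC1 and CRH had r 0.72 (p = 0.004, adjusted 0.0179), rho 0.75 (p = 0.00325, adjusted 0.0193) and r 0.71 without the 2 farthest. All 21 pairs had a positive r there, against 25 of 36 in the amygdala, 11 of 21 in hippocampus and 17 of 21 in occipital cortex. Pairs that moved in opposite directions were found in hippocampus, where TAC1 and PDYN had r -0.76 (p = 0.00179, adjusted 0.0142), rho -0.71 (p = 0.00576, adjusted 0.0605) and r -0.61 without the 2 farthest animals, -0.76 without animals 30 and 43 and -0.73 without animals 33 and 40. NPY and CRH had r -0.74 there (p = 0.00203, adjusted 0.0142), rho -0.62 (p = 0.02, adjusted 0.0907) and r -0.55 without the 2 farthest animals, -0.53 without animals 30 and 43 and -0.71 without animals 33 and 40. In the amygdala VIP and PDYN had r -0.69 (p = 0.00727, adjusted 0.0751) and rho -0.67 (p = 0.0117, adjusted 0.14), which did not pass the adjustment.

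In occipital cortex CCK and NPY had r 0.79 (permutation p = 0.00052, adjusted 0.00809), rho 0.80 (p = 0.00101, adjusted 0.0212) and r 0.63 without the 2 farthest animals. Several precursors there followed the ribosomal protein list within the groups. Over 30 relations of a precursor with the mean of that list, adjusted together, TAC1 had r 0.90 (permutation p = 3e-05, adjusted 0.0009), rho 0.71 (p = 0.00538, adjusted 0.0404) and r 0.74 without the 2 farthest libraries. CCK had r 0.87 (p = 0.00021, adjusted 0.00315), rho 0.81 (p = 0.00085, adjusted 0.0092) and r 0.75 without them. NPY had r 0.76 (p = 0.0013, adjusted 0.00975), rho 0.86 (p = 0.00016, adjusted 0.0048) and r 0.69 without them, and VIP had r 0.83 (p = 0.00048, adjusted 0.0048), rho 0.68 (p = 0.0102, adjusted 0.0612) and r 0.49 without them. In hippocampus CCK alone passed (r 0.76, p = 0.00168, adjusted 0.0101; rho 0.81, p = 0.00092, adjusted 0.0092; r 0.72 without the 2 farthest, 0.69 without animals 30 and 43 and 0.83 without animals 33 and 40). In the amygdala CCK, TAC1 and VIP had r of 0.37, 0.39 and 0.34 within the groups (rho 0.35, 0.41 and 0.22), with permutation p of 0.195, 0.175 and 0.227 for r, and did not pass. What CCK, TAC1, VIP and NPY share with ribosomal protein transcripts across these libraries was not tested.

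Rank correlation over the 14 amygdala libraries was also computed on deviations from the group means, so differences between HT and OvH do not enter it. The genes most like each precursor were PKP1 (rho 0.81) and CLPB (0.80) for CCK, and FAM221A (0.78) and DLK1 (0.77) for TAC1. VIP was most like FKBP3 (0.93) and CCT4 (0.92), SST most like PIM2 and SNX15 (0.94 each), and NPY most like BEX4 and MPHOSPH6 (0.93 each). PENK was most like C5AR1 (0.87) and NADSYN1 (0.86), and PDYN most like SULF1 (0.96) and ADCY8 (0.94). CRH was nearest to SELE (0.93) and FYN (0.92), and TAC3 to WDR6 and TSPYL2 (0.95 each). These are the highest of 16129 rows and carry no test.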

How the data were processed

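Total RNA from 4 brain regions of 14 macaques was sequenced as stranded, paired messenger RNA libraries, per the labels' protocols. The deposited table holds 17807 Ensembl rows by 56 libraries, and its values are upper-quartile normalized counts, a signal made by the authors. Per the submitters' processing notes, the tools were Trimmomatic, STAR 2.7.3a and edgeR 3.28.0 and the genome build Mmul_10. The counting program, annotation release and strand setting were not given in the sources used here. The upper quartile was 2818.9 in every library. Undoing the scaling gave whole reads for 100.0% of values within 0.01 reads, at 34629533 to 93335855 reads per library (median 59875932). A symbol was paired with 15123 rows through a table of gene names. No sequences are shown, because no sequence table or genome of this species was used here.

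Groups came from the labels (8 groups of 7). The members and gene lists were chosen with earlier results of these data known. Each region was fitted on log2(value + 1) by limma 3.58.1 (R 4.3.3, trended prior) over rows with a mean of at least 10, two-sided, with Benjamini-Hochberg adjustment over all rows and a threshold of 0.05. Regions of 1 animal are paired by the labels, and the consensus correlation of the animal block was 0.184. Contrasts between regions used the animal as a fixed block. Alternatives were pseudocount 10, no filter, equal totals, no trend, myelin or GABAergic means as covariates, each animal left out, edgeR 4.0.16 on the recovered reads (1018 rows called in amygdala) and DESeq2 1.42.0. Covariates of ribosomal protein and pan-neuronal means, and hippocampus fits and correlations without animals 30 and 43 or 33 and 40, were added after seeing the data. Correlations used 100000 permutations in scipy 1.17.1. The fit was tested on simulated data. All members were named in every region where they could be used. For each list the members past the threshold were named, or otherwise the 3 with the smallest p in the amygdala, and for each member the 2 genes most like it. One gene that this rule would name is not reported here.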

Additional observations from a re-analysis of the deposited data

Results flagged for a closer look

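Of 60 sets of 7 animals (1 precursor, region and treatment each), 12 had a highest animal set apart from the others by more than Dixon's 95% limit for 7 values, a gap measured against the whole range. Chance passes that limit in about 1 in 20 sets of independent, normally distributed values, counting both ends. These sets share libraries and their values are not on a log scale, so the number of them was not compared with that share. OvH animal 32 accounted for 4 of them: 25976 for SST, 11266 for NPY and 725.1 for TAC3 in amygdala, and 3709 for NPY in prefrontal cortex. HT animal 40 accounted for 3: 6856 for TAC1 and 3392 for VIP in occipital cortex and 8916 for SST in prefrontal cortex. In occipital cortex animal 40 also had the highest summed level of the ribosomal protein list within HT (4058000), and OvH animal 34, set apart for VIP at 1834, had the highest within OvH (3257000).

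OvH animal 43 was set apart for VIP in hippocampus at 2493, and its library had the highest summed level of the ribosomal protein list in that region (3685000). In amygdala, HT animal 41 was set apart for PENK at 11153, HT animal 39 for PDYN at 8579.9 and OvH animal 35 for CRH at 153.3. None of the 3 precursors that rose in the amygdala had an animal set apart there. No difference of HT effects between regions passed the test of that difference.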

How the results depend on the processing

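The number of amygdala rows called was 1112, and 1732 with DESeq2, 497 with the myelin covariate, and 0 with the GABAergic, ribosomal protein or pan-neuronal covariate (2406, 376 and 1478 with an unadjusted limma p under 0.05). It was 1018 with edgeR, 1634 with equal totals, 1370 with the replicate block, and 548 (without animal 33) to 2362 (without animal 32) with single animals left out. It was 639 without animal 35, 603 without 36, 718 without 37, 724 without 38, 736 without 42 and 622 without 43. In hippocampus, counts of 0 became 1 with equal totals or the GABAergic covariate and 12 with DESeq2. In occipital cortex the replicate block gave 1, and in prefrontal cortex pseudocount 10 gave 1 and DESeq2 6. Single animals left out gave 0 to 1 in occipital and prefrontal cortex and in the 3-region average. For the difference between regions they gave 0 to 1159, equal totals gave 505 and no intensity trend 1. Among the precursors VIP was the only call that the replicate block changed. Without the replicate block the region contrasts called 5848, 7254 and 6687 rows.

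In amygdala CCK, TAC1 and VIP kept their direction under every alternative run, and the calls lost are given beside them, with the pan-neuronal covariate adding 1.04, 0.76 and 0.89 with adjusted p of 0.193, 0.346 and 0.257. GRP was no longer past the threshold with the myelin, GABAergic, ribosomal protein and pan-neuronal covariates. Over all member values, 552 of 616 leave-outs and 439 of 475 other alternatives kept direction and side of the threshold. All values that changed sign were uncalled in the reported fit, and the cause was not tested. In amygdala these were NPY -0.35, PDYN 0.78 and CRH 0.52 with the ribosomal protein covariate and PENK 0.10 with the GABAergic covariate. In hippocampus they were VIP 0.18 and NPY -0.09 with the myelin covariate, VIP 0.21, NPY -0.27 and CRH 0.04 without animals 30 and 43, and SST 0.01 without 33 and 40. Elsewhere they were CCK 0.06 in occipital cortex with the GABAergic covariate and NPY in prefrontal cortex with edgeR (-0.02), DESeq2 (-0.03) and the GABAergic covariate (-0.06). Between regions they were, for hippocampus minus prefrontal, TAC1 0.04 with edgeR and 0.06 without animals 33 and 40 and PDYN -0.01 with equal totals, and for occipital minus prefrontal, CRH 0.02 with edgeR and 0.04 without animals 33 and 40.

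With single animals left out, values ran across 0 as follows. In amygdala PENK ran from -0.52 to 0.11 and PDYN from -0.41 to 0.07. In hippocampus VIP ran from -0.43 to 0.01 and NPY from -0.17 to 0.20. In occipital cortex CCK ran from -0.28 to 0.07, TAC1 from -0.04 to 0.34 and NPY from -0.32 to 0.02. In prefrontal cortex TAC1 ran from -0.04 to 0.09, NPY from -0.04 to 0.25, PDYN from -0.02 to 0.23 and CRH from -0.03 to 0.23. Over the 3 regions VIP ran from -0.06 to 0.16, SST from -0.12 to 0.02, NPY from -0.12 to 0.09 and CRH from -0.18 to 0.11. The difference between regions for CRH ran from -0.29 to 0.11. Without animals 30 and 43, SST differed between hippocampus and prefrontal cortex past the threshold (0.37), as did CCK (-0.41) and NPY (-0.43) between occipital and prefrontal cortex without animals 33 and 40. CRH in amygdala had the fewest reads of the precursors used, 22 in 1 library, and whether depth sets its interval was not tested.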
